A study of Mus musculus with 8 samples.

Results

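Basement membranes are thin sheets of extracellular matrix that surround vessels, nerves, muscle fibres and fat cells and that also occur around sinusoids of the bone marrow. Expression of 10 of their core genes, out of 49315 genes counted, was examined in sorted stromal populations of the mouse bone marrow. The 10 genes were chosen by name as the laminin chains Lama2, Lama4, Lama5, Lamb1, Lamb2 and Lamc1, the nidogens Nid1 and Nid2, and the heparan sulphate proteoglycans Hspg2 (perlecan) and Agrn (agrin), and all 10 were found in the deposited counts by their symbols. The choice was made with earlier results of these data known. RNA-seq was available as 1 library for each of 7 sorted populations, clusters 1 to 7, and 1 library labelled as input cells of the bone marrow. No population had a replicate, so no test was made, and intervals are 95% exact intervals that cover counting error only, since copies made by PCR cannot be told from separate molecules here.

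By the labels, all 8 libraries came from wild type C57BL/6J mice aged 6 weeks, and the Methods name the strain C57BL/6JJcl. The study defined the clusters by single-cell RNA-seq of marrow cells with Sca-1 and PDGFR-α on their surface and without CD31, CD45 or Ter119, and sorted each one back from the lineage-negative marrow with surface markers. By its sort plots, cluster 1 was CD24-, Sca-1+ and CD39+, cluster 2 was Ly-6C-, CD24- and CD39-, and cluster 3 was Ly-6C+, CD24+, CD39- and CD54-. Cluster 4 was Ly-6C-, CD24- and CD54+, cluster 5 was CD54+, CD24-, Ly-6C- and CD121b-, cluster 6 was CD24+, Sca-1- and CD39-, and cluster 7 was CD54-, Sca-1+, CD24- and Ly-6C-. The text of the study does not say how the input library was made. The labels call every library bone marrow stromal cells, and their extraction protocol describes crushed marrow without a sort. The number of mice behind each library is not given in the sources used here.

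Totals of the counts on genes were, from cluster 1 to cluster 7 in that order, 24205863, 25349917, 27102715, 32549319, 12833648, 31669132 and 33238133, with 20162876 for the input. Levels are given as RPKM, the reads of a gene divided by its exon length and by the library total, so that levels of different genes can be compared per length. A library with a few dominant loci has lower RPKM for all its other genes. In cluster 5, Lars2, mmu-mir-689-2 and Rn18s-rs5 took 34.8% of the counts, against 10.4% in cluster 2 and 0.274% in cluster 7. Scaling by TMM, which uses the bulk of the genes instead of the total count, moved log2 levels by 0.44 and 0.37 in clusters 5 and 6, by -0.14 and -0.68 in cluster 1 and the input, and by no more than 0.05 either way in the rest. In bulk libraries such as these, a higher level in some of the cells and a larger number of such cells cannot be told apart.

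A laminin is a trimer of 1 alpha, 1 beta and 1 gamma chain, and the alpha chain carries the main binding sites for cell receptors such as integrins and dystroglycan. Nidogens bind the laminin gamma1 chain and type IV collagen, and so link the laminin network with the collagen network. Perlecan and agrin bind laminin and carry heparan sulphate chains that hold growth factors. In the bone marrow, laminins with alpha4 and alpha5 chains are known around sinusoids and arterioles, and laminin alpha2 is known best from the basement membranes of muscle fibres and Schwann cells.

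Nid1, Lamb1 and Hspg2 are shown here by the sequence upstream of their starts, because Nid1 and Lamb1 had the most alike levels of any pair of the 10 genes over the sorted libraries whereas Hspg2 did not follow them. RefSeq promoter windows of GRCm38.p6 were matched for 7 of the 10 genes, in 8 windows, and Lama4, Lamc1 and Nid2 had none. A window is the 250 bases before the transcript start used there. The 3 genes lie on the plus strand, and their windows are printed 5′ to 3′ up to the first base of the gene in either RefSeq or the deposited annotation, which left 250 bases for Nid1, 103 for Lamb1 and 198 for Hspg2. Capitals mark GC boxes (GGGCGG) and CCAAT boxes (CCAAT), on either strand.
Nid1, chr13:13437352-13437601: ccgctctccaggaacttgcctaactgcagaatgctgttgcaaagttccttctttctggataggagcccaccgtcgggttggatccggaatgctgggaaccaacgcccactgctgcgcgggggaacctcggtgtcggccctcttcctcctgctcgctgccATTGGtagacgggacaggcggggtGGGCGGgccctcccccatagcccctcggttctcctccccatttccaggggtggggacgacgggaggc
Lamb1, chr12:31265043-31265145: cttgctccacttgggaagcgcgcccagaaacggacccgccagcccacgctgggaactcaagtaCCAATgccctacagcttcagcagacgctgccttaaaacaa
Hspg2, chr4:137468553-137468750: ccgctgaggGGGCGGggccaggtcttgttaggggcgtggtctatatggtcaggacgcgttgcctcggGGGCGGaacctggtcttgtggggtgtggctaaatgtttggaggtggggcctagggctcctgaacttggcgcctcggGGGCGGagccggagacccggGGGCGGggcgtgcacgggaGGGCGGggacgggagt

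The printed bases held 1 GC box and 1 CCAAT box for Nid1, 0 and 1 for Lamb1, and 5 and 0 for Hspg2. The whole Lamb1 window held 2 GC boxes, both past the first annotated base of the gene. Of 32851 RefSeq windows of 250 bases, 32.7% held a GC box and 33.8% a CCAAT box. Neither the TATA box (TATAAA, in 12.4% of windows) nor the RUNX motif (TGTGGT, in 14.0%) was found in any of the 8 windows. Capitals of neighbouring matches can touch or overlap, and a match of letters is not a measured binding site. Over the whole 250-base windows, which for Lamb1 and Hspg2 are longer than the printed bases, GC content was 64.4% for Nid1, 62.0% for Lamb1 and 70.0% for Hspg2, against a median of 52.4%, and the window of Lamb2, the most abundant laminin chain, held 43.6% and none of these motifs.

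The laminin alpha chains Lama2 and Lama4 were highest in cluster 1, and Lama5 was scarce in every library. Lama2 (ENSMUSG00000019899, GRCm38 chr10:26980036-27619758, minus strand), the chain of muscle and nerve laminins, had RPKM of 9.18, 1.34, 2.08, 7.42, 2.24, 0.352 and 6.41 in clusters 1 to 7, given in that order here and below, and 3.51 in the input. Clusters 1, 4 and 7 stood above the input and the other 4 below it, with cluster 6 lowest, although with TMM cluster 5 was also above the input. The level in cluster 1 was 26.1-fold that in cluster 6 (22.5 to 30.5), and 18.3-fold with TMM. Clusters 5 and 3 were within counting error of each other.

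Lama4 (ENSMUSG00000019846, chr10:38965515-39110188, plus strand), the alpha4 chain of laminins found in many vessel walls and in fat, had RPKM of 12.5, 2.23, 7.47, 6.78, 1.65, 2.88 and 7.40 in clusters 1 to 7 and 4.55 in the input. All of clusters 1, 3, 4 and 7 lay above all of clusters 2, 5 and 6, with the input between, although with TMM cluster 6, at 3.71, was above the input, at 2.85. Cluster 1 was 7.59-fold above cluster 5 (6.69 to 8.65), and 5.08-fold with TMM. Clusters 3 and 7 differed by less than counting error.

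Lama5 (ENSMUSG00000015647, chr2:180176373-180225859, minus strand), the alpha5 chain of many epithelial and vascular basement membranes, had RPKM of 0.482, 0.260, 0.706, 0.429, 0.171, 0.205 and 0.402 in clusters 1 to 7 and 0.562 in the input. These levels rest on 25 counts in cluster 5 to 218 in cluster 3. The same clusters 1, 3, 4 and 7 were above clusters 2, 5 and 6, but clusters 1 and 4, 4 and 7, 2 and 6, and 6 and 5 were each within counting error of their neighbour. Cluster 3 was 4.13-fold above cluster 5 (2.72 to 6.52), and 3.10-fold with TMM.

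Within a library, ratios between genes do not depend on the scaling. Lama4 was 8.59- to 26.0-fold above Lama5 per exon length in the 7 sorted libraries, so Lama5 made up 2.17% to 6.89% of the summed RPKM of the 3 alpha chains. Per coding length the ratio was 18.6 to 56.4 and the share of Lama5 1.11% to 3.51%. The ratio of Lama2 to Lama4 was 0.732 in cluster 1 (0.699 to 0.766), 1.09 in cluster 4 (1.04 to 1.15), 1.36 in cluster 5 (1.16 to 1.59) and 0.866 in cluster 7 (0.825 to 0.910). It was 0.601 in cluster 2 (0.537 to 0.674), 0.279 in cluster 3 (0.258 to 0.301) and 0.122 in cluster 6 (0.104 to 0.143). Per exon length the alpha2 message thus outweighed alpha4 in clusters 4 and 5 and was a smaller part of the alpha chains in clusters 3 and 6, where Lama4 held 72.8% and 83.8% of their RPKM. Per coding length in place of exon length, Lama2 was below Lama4 in cluster 4 as well (0.863, 0.821 to 0.907), and in cluster 5 the ratio was 1.07 with an interval that included 1 (0.917 to 1.25).

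Of the beta chains, Lamb2 was abundant in every library, whereas Lamb1 varied most of all laminin chains. Lamb1 (ENSMUSG00000002900, chr12:31265234-31329644, plus strand), the beta1 chain, had RPKM of 23.4, 1.36, 9.09, 13.0, 3.34, 0.522 and 9.99 in clusters 1 to 7 and 4.30 in the input. Clusters 1, 3, 4 and 7 all exceeded the input and clusters 2, 5 and 6 were all below it, and no neighbours in this order were within counting error. With TMM, cluster 5 was above the input, at 4.51 against 2.69. Cluster 1 was 44.9-fold above cluster 6 (38.4 to 52.7), and 31.5-fold with TMM.

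Lamb2 (ENSMUSG00000052911, chr9:108479736-108490530, plus strand), the beta2 chain, known from neuromuscular junctions, kidney glomeruli and vessels, had RPKM of 81.4, 21.5, 73.2, 71.6, 23.8, 35.2 and 91.2 in clusters 1 to 7 and 23.6 in the input. Clusters 1, 3, 4 and 7 again lay above clusters 2, 5 and 6. The spread was smaller, with cluster 7 at 4.23-fold the level of cluster 2 (4.08 to 4.39), and 4.07-fold with TMM. Clusters 3 and 4 did not differ beyond counting error, and clusters 1 and 3 changed places with TMM.

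Lamb2 held 77.7% of the summed beta chain RPKM in cluster 1 and 98.5% in cluster 6, and per coding length 68.5% and 97.7%. The ratio of Lamb1 to Lamb2 was 0.288 in cluster 1 (0.279 to 0.297; 0.460 per coding length), 0.182 in cluster 4 (0.176 to 0.189), 0.140 in cluster 5 (0.126 to 0.156), 0.124 in cluster 3 (0.119 to 0.130) and 0.110 in cluster 7 (0.106 to 0.114). It fell to 0.0631 in cluster 2 (0.0563 to 0.0706) and 0.0148 in cluster 6 (0.0126 to 0.0173), and was 0.182 in the input. Lamb2 was therefore the main beta chain message throughout, and in cluster 6 almost the only one of the pair.

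Lamc1 (ENSMUSG00000026478, chr1:153218922-153332786, minus strand), the gamma1 chain shared by most laminins, had RPKM of 47.0, 5.67, 22.5, 21.4, 6.72, 3.69 and 26.6 in clusters 1 to 7 and 4.98 in the input. Clusters 1, 3, 4 and 7 were high and clusters 2, 5 and 6 low, and of the 7 only cluster 6 was below the input at total count scaling. Cluster 1 was 12.8-fold above cluster 6 (11.9 to 13.6), and 8.96-fold with TMM. Every pair of neighbours in this order differed beyond counting error.

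Since every laminin of these chains needs 1 chain of each class, the summed chains were set against Lamc1. The summed alpha chains were 0.456 to 0.932 times Lamc1 in the sorted libraries and 1.73 times in the input. Summed beta chains were 2.23 to 4.05 times Lamc1 in clusters 1 to 5 and 7, and 9.69 times in cluster 6 (per coding length 1.66 to 2.85 and 6.42), where Lamb2 stayed at RPKM 35.2 while Lamc1 was 3.69. Alpha message was thus the least abundant class in all 7 sorted libraries, although per coding length the alpha sum was above Lamc1 in cluster 6 (1.14), and the level of a message is not the level of the chain.

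The nidogens parted in opposite directions. Nid1 (ENSMUSG00000005397, chr13:13437602-13512275, plus strand) had RPKM of 112, 12.8, 55.4, 68.1, 26.1, 4.04 and 75.5 in clusters 1 to 7 and 28.5 in the input. Clusters 1, 3, 4 and 7 were all above the input and clusters 2, 5 and 6 all below it, although with TMM cluster 5, at 35.3, was above the input, at 17.8. The level in cluster 1 was 27.8-fold that in cluster 6 (25.8 to 29.9), and 19.5-fold with TMM.

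Nid2 (ENSMUSG00000021806, chr14:19751257-19811787, plus strand) had RPKM of 17.6, 33.7, 7.05, 17.0, 1.87, 94.9 and 10.8 in clusters 1 to 7 and 5.04 in the input. Cluster 6 was highest, at 2.82-fold cluster 2 (2.72 to 2.92) and 50.8-fold cluster 5 (42.4 to 61.5), and 48.5-fold cluster 5 with TMM. The size of this range rests on cluster 5, since in RPKM + 1 the highest library was 33.4-fold the lowest and 11.9-fold without cluster 5. Cluster 5 alone was below the input, and clusters 1 and 4 were within counting error and changed places with TMM. Nid2 shares 386 exon bases with 2700060E02Rik on the other strand, and the strand setting of the counting is not given in the sources used here, so reads from that stretch cannot be told apart. Counts of 2700060E02Rik were 564 in cluster 5, where Nid2 had 117, and 3476 in cluster 2, where Nid2 had 4171. They were 2115 in cluster 6, where Nid2 had 14675. The part of shared reads in the Nid2 levels was not tested.

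Set against each other, Nid1 exceeded Nid2 by 6.37-fold in cluster 1 (6.08 to 6.67), 7.86-fold in cluster 3 (7.34 to 8.41), 4.01-fold in cluster 4 (3.85 to 4.18), 14.0-fold in cluster 5 (11.6 to 17.0) and 6.99-fold in cluster 7 (6.65 to 7.35). The ratio was 5.66 in the input. In cluster 2 it was 0.379 (0.359 to 0.400) and in cluster 6 0.0426 (0.0395 to 0.0457), which is a 23.5-fold excess of Nid2. Nid2 made up 72.5% of nidogen RPKM in cluster 2 and 95.9% in cluster 6, against 6.67% to 19.96% in the other sorted libraries. The summed nidogen level of cluster 6, 98.9, was nonetheless below that of cluster 1 alone, 129.7, and above those of clusters 7 (86.3) and 4 (85.1), and with TMM cluster 6 was highest, at 127 against 117 in cluster 1.

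**Figure D1:**
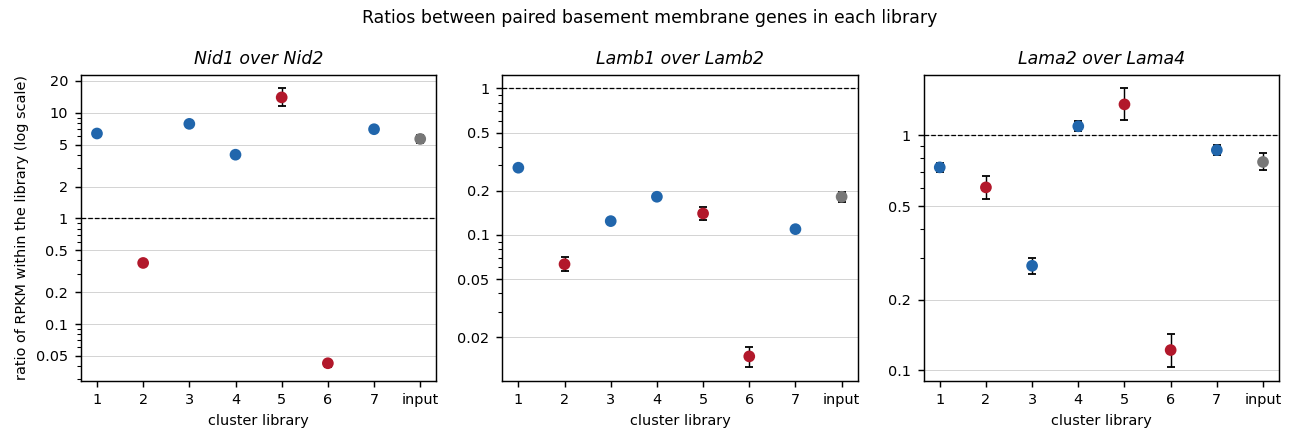
Ratio of RPKM, that is per exon length, between paired genes in each library (log axis), with clusters 1, 3, 4 and 7 in blue, clusters 2, 5 and 6 in red, the input in grey, and bars for 95% exact intervals of counting error. The ratio of Nid1 to Nid2 is below 1 (dashed line) in clusters 2 and 6, that of Lamb1 to Lamb2 is below 1 in every library, and that of Lama2 to Lama4 is above 1 in clusters 4 and 5, though not per coding length in cluster 4 (0.863).

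The proteoglycans did not follow the laminins. Hspg2 (ENSMUSG00000028763, chr4:137468769-137570630, plus strand) had RPKM of 17.5, 23.5, 8.998, 13.7, 6.11, 17.3 and 8.18 in clusters 1 to 7 and 4.82 in the input. Its highest level was in cluster 2 and all 7 sorted libraries were above the input. Cluster 2 was 3.85-fold above cluster 5 (3.61 to 4.10), and with TMM the lowest library was cluster 7, at 2.98-fold below cluster 2. Clusters 1 and 6 were within counting error, and with TMM cluster 6 was higher, at 22.4 against 15.9.

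Agrn (ENSMUSG00000041936, chr4:156165290-156197488, minus strand), known for clustering acetylcholine receptors at the neuromuscular junction, had RPKM of 1.86, 1.66, 1.14, 1.88, 0.671, 1.996 and 1.77 in clusters 1 to 7 and 0.817 in the input. In the order of clusters 6, 4, 1, 7 and 2, each was within counting error of the next, although cluster 6 was above cluster 2 by 1.20-fold (1.06 to 1.37), and clusters 3 and 5 were lower. With TMM, cluster 6 was 1.34-fold above cluster 4, and clusters 1 and 7 changed places. Cluster 6 was 2.97-fold above cluster 5 (2.35 to 3.805), on 587 and 80 counts, and 2.83-fold with TMM. Per exon length Hspg2 was 4.63-fold (cluster 7) to 14.1-fold (cluster 2) above Agrn.

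**Figure D2:**
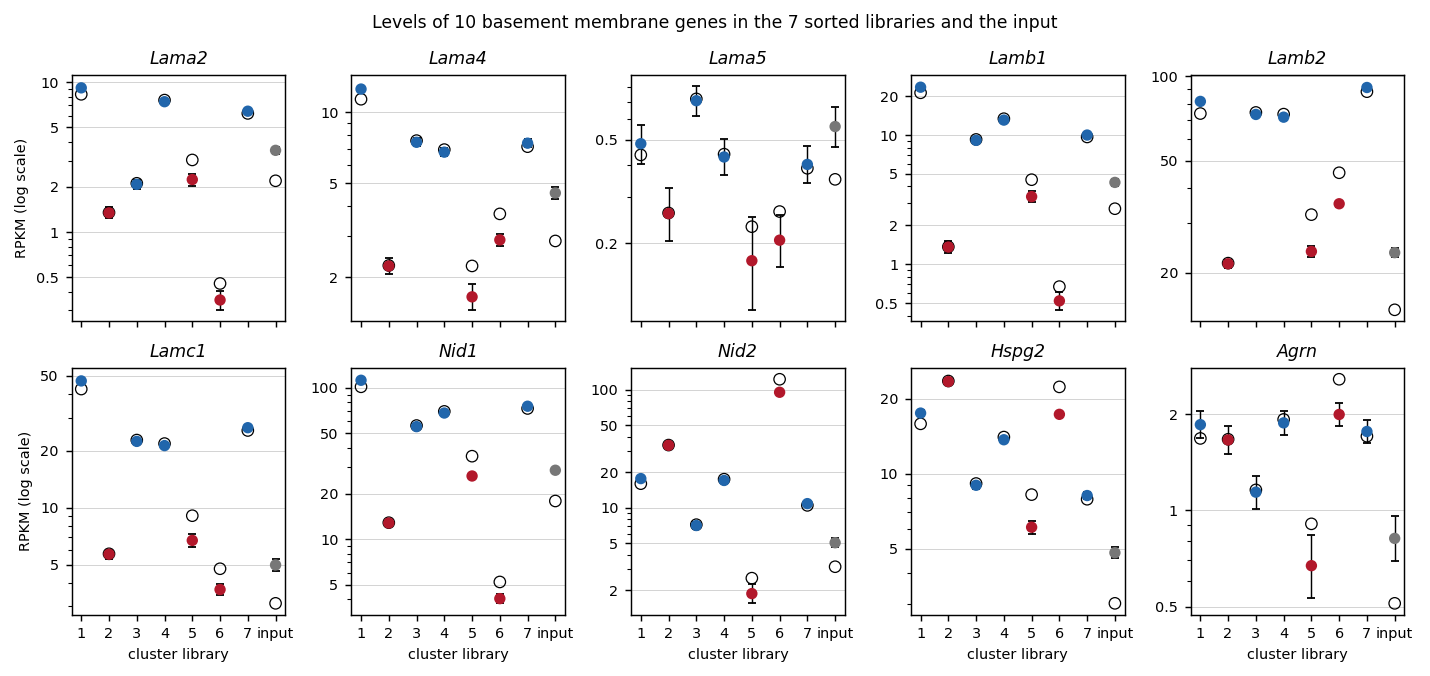
RPKM of the 10 genes (log axis, scale differs by panel) in the 7 sorted libraries and the input, with clusters 1, 3, 4 and 7 in blue, clusters 2, 5 and 6 in red and the input in grey, bars for 95% exact Poisson intervals and open circles for TMM-scaled RPKM. Blue points lie above red points for Lama4, Lama5, Lamb1, Lamb2, Lamc1 and Nid1, while Nid2 peaks in cluster 6 at 94.9 and Hspg2 in cluster 2 at 23.5.

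Across the members, 8 of 10 reached RPKM above 2 in at least 1 sorted library, and Lama5 and Agrn did not. All 8 differed more than 2-fold in RPKM + 1 between their highest and lowest sorted library, against 70.6% of all 12360 genes that passed the same filter. Against the input, 0 of the 8 were more than 2-fold higher in all 7 sorted libraries (0.728% of all genes), although with TMM Hspg2 was.

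The study divided the populations by open chromatin into clusters 1, 3, 4 and 7 and clusters 2, 5 and 6. It reported similar results from clustering its RNA-seq data, which are the libraries used here. Of the 8 genes, 5 (Lama4, Lamb1, Lamb2, Lamc1 and Nid1) were higher in every library of the first group than in any of the second, against 20.4% of all genes tested, and the same 5 were with TMM. In the opposite direction there were 0 of 8, against 0.51% of all genes. Without the cluster 5 library, Lama2 joined the first set, against 23.1% of 12104 genes, and Nid2 was higher in clusters 2 and 6 than in all the others, against 6.31%. Populations are not replicates of a condition, so these counts describe the 7 libraries. The members and lists were chosen with earlier results of these data known. Nothing is therefore read from an excess over all genes, here or in the counts below.

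By library, cluster 1 was highest for 5 of the 8 (Lama2, Lama4, Lamb1, Lamc1 and Nid1), against 21.3% of all genes. Hspg2 was highest in cluster 2 (22.8% of all genes), Nid2 in cluster 6 (7.1%) and Lamb2 in cluster 7 (25.3%). None of the 8 was highest in cluster 3 (9.85%), cluster 4 (8.95%) or cluster 5 (4.73%). Nid2, in cluster 6, was the 1 gene of the 8 more than 2-fold above each of the other 6 sorted libraries, a pattern seen in 5.4% of all genes.

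Summed over the 10 genes, RPKM was 323, 104, 188, 221, 72.7, 161 and 238 in clusters 1 to 7 and 80.7 in the input. Cluster 1 carried most of this message and cluster 5 least. With TMM the sums were 293, 105, 191, 227, 98.3, 208 and 230 in clusters 1 to 7 and 50.5 in the input, so that cluster 6 moved closer to clusters 4 and 7. The members of the sum differed, since nidogens made up 61.4% of it in cluster 6 and 33.3% to 44.7% in the other sorted libraries. The median log2(RPKM + 1) of the 8 genes exceeded that of all genes tested by 1.61, 0.64, 0.73, 1.39 and 0.28 in clusters 1 to 5 and by 0.74 in cluster 7, whereas the difference was -0.12 in cluster 6.

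Clusters 1 and 6 were set side by side as the libraries with the highest and the lowest of these median differences, a pair chosen with the values known. With no RPKM filter, cluster 5 in place of cluster 6 had the lowest. Because these genes chose the pair, the counts that follow describe it, and nothing is read from their excess over all genes. Of the 8 genes, 6 were more than 2-fold higher in cluster 1 in RPKM + 1 (Lama2, Lama4, Lamb1, Lamb2, Lamc1 and Nid1), where the share of all 11094 genes above RPKM 2 in either library was 21.5%. In the reverse direction 1 gene, Nid2, was higher in cluster 6, where the share was 5.82%. Lamb2 was 2.31-fold higher in cluster 1 (2.24 to 2.38) but 1.62-fold with TMM. Hspg2 stood at 1.01-fold (0.978 to 1.05), and at 0.711-fold with TMM.

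**Figure D3:**
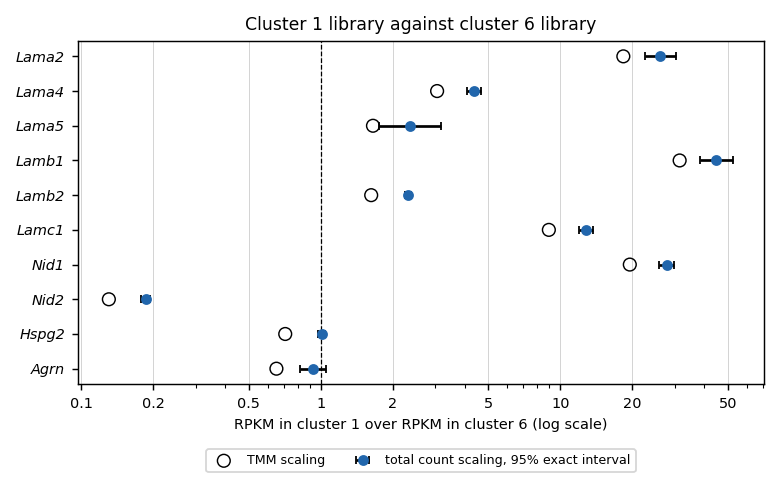
RPKM in cluster 1 over RPKM in cluster 6 for each gene (log axis), with filled points and 95% exact intervals for total count scaling and open circles for TMM scaling. Lamb1 (44.9), Nid1 (27.8) and Lama2 (26.1) lie far to the right, Hspg2 (1.01) and Agrn (0.929) lie near equality, and Nid2 (0.186) lies to the left.

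Likeness of the patterns was described by Pearson's r of log2(RPKM + 1) over the 7 sorted libraries, points that also share library depth and composition. Among the 10 genes r was 0.978 for Lamb1 and Nid1, 0.977 for Lamb1 and Lamc1 and 0.952 for Nid1 and Lamc1. Nid1 and Nid2 had r of -0.55, whereas Nid2 had r of 0.84 with Hspg2 and 0.83 with Agrn. The gamma1, beta1 and Nid1 messages were thus alike, and Nid2 had negative r with each of them (-0.43 with Lamb1, -0.32 with Lamc1). Hspg2 had r of -0.23 with Lamb1, -0.16 with Lamc1 and -0.34 with Nid1. Agrn, which did not pass the filter, had 0.08, 0.19 and -0.03 in the same order. With TMM these r were lower, at -0.53, -0.49 and -0.64 for Hspg2 and -0.29, -0.20 and -0.43 for Agrn. A split into opposite sides was thus not shown for the proteoglycans at total count scaling.

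Among 7453 genes compared outside the members, the most alike were Ccl11 for Lama2 (r = 0.995), Rpusd1 for Lama4 (0.996), Cldn9 for Lama5 (0.995), Arl4a for Lamb1 (0.993), Glb1l for Lamb2 (0.997) and AW551984 for Lamc1 (0.997). For Nid1 they were Col5a3 (0.992), a chain of the fibrillar type V collagens, and Plce1 (0.991). Col5a3 had RPKM of 119 in cluster 1 and 2.09 in cluster 6. For Nid2 they were Plekhh2 (0.976) and Fasn (0.975), the fatty acid synthase, which had RPKM of 15.6 in cluster 6 and 3.02 in cluster 5. Hspg2 was most like Elovl6 (0.975), a fatty acid elongase, and Agrn most like Ap1g1 (0.979).

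The collagens of the basement membrane were most abundant where Nid1 and the laminins were. Type IV collagen forms a network of its own in the sheet, and types XV and XVIII are linked to its outer face. Of 8 such genes 7 passed RPKM 2, all 7 varied more than 2-fold (70.6% of all genes tested) and 6 were highest in cluster 1 (21.3% of all genes tested). Col4a1, a chain of the common type IV trimer, had RPKM of 147, 12.5, 37.5, 98.3, 28.01, 4.11 and 91.2 in clusters 1 to 7 and 23.4 in the input. Col4a2, its partner, had 113 in cluster 1 and 7.94 in cluster 6. Col18a1, whose C-terminal fragment is endostatin, had 53.7 in cluster 1 and 0.994 in cluster 6. The 8 genes summed to RPKM 373 in cluster 1 and 27.0 in cluster 6, so cluster 6 joined the highest Nid2 with the lowest collagen sum of the 7 sorted libraries.

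Of the other laminin chains examined, Lama1, Lama3, Lamb3 and Lamc3 did not reach RPKM 2 in any sorted library at total count scaling. Lamb3 was 0.463 to 1.75 in the sorted libraries and 3.62 in the input, whereas with TMM it was 2.26 in cluster 6 and 2.27 in the input, and Lama1 was at 0 counts in cluster 2.

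Of 14 receptor genes, 10 passed RPKM 2 and 8 of these varied more than 2-fold, close to the 70.6% of all genes tested. Itgb1, the beta1 integrin subunit shared by most laminin-binding integrins, had RPKM of 158, 68.7, 164, 118, 58.5, 101 and 167 in clusters 1 to 7 and 107 in the input. Dag1, which encodes dystroglycan, had 39.99, 13.6, 36.4, 25.7, 9.13, 25.4 and 33.6 in clusters 1 to 7 and 17.3 in the input. Both were lower in clusters 2, 5 and 6 than in clusters 1, 3, 4 and 7, as 20.4% of all genes tested were. The same held for Lamc1, over a wider range. For Dag1, clusters 4 and 6 were close, on 5321 and 5118 counts. With TMM the order of the groups was lost, since cluster 6 was above cluster 4 for Itgb1 (130 against 121) and for Dag1 (32.8 against 26.4). Sdc4, a cell surface heparan sulphate proteoglycan, was highest in cluster 2 at 426 and lowest in cluster 5 at 64.0. Dystroglycan glycosylation makes the sugar chain that binds laminin, and of its genes Pomgnt1 had the highest level of the list in every library, from 4.69 in cluster 5 to 11.4 in cluster 3.

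Of 15 genes for assembly and linked proteins, 11 passed RPKM 2 and 10 varied more than 2-fold, beside 70.6% of all genes tested. Sparc, a collagen-binding protein abundant in bone, was highest in cluster 6 at RPKM 11884 and lowest in cluster 5 at 3836, whereas with TMM cluster 1 was lowest, at 4115. Fbln2, a fibulin that binds nidogen and laminin, had 122, 13.3, 87.2, 83.4, 20.3, 1.73 and 91.5 in clusters 1 to 7 and 46.6 in the input. Its levels in clusters 1, 3, 4 and 7 were above those in clusters 2, 5 and 6, like Nid1 and 20.4% of all genes tested. Pxdn, which crosslinks type IV collagen, was 13.1 in cluster 1 and 0.999 in cluster 6. Smoc2, a relative of Sparc, was highest in cluster 4 at 394.

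**Figure D4:**
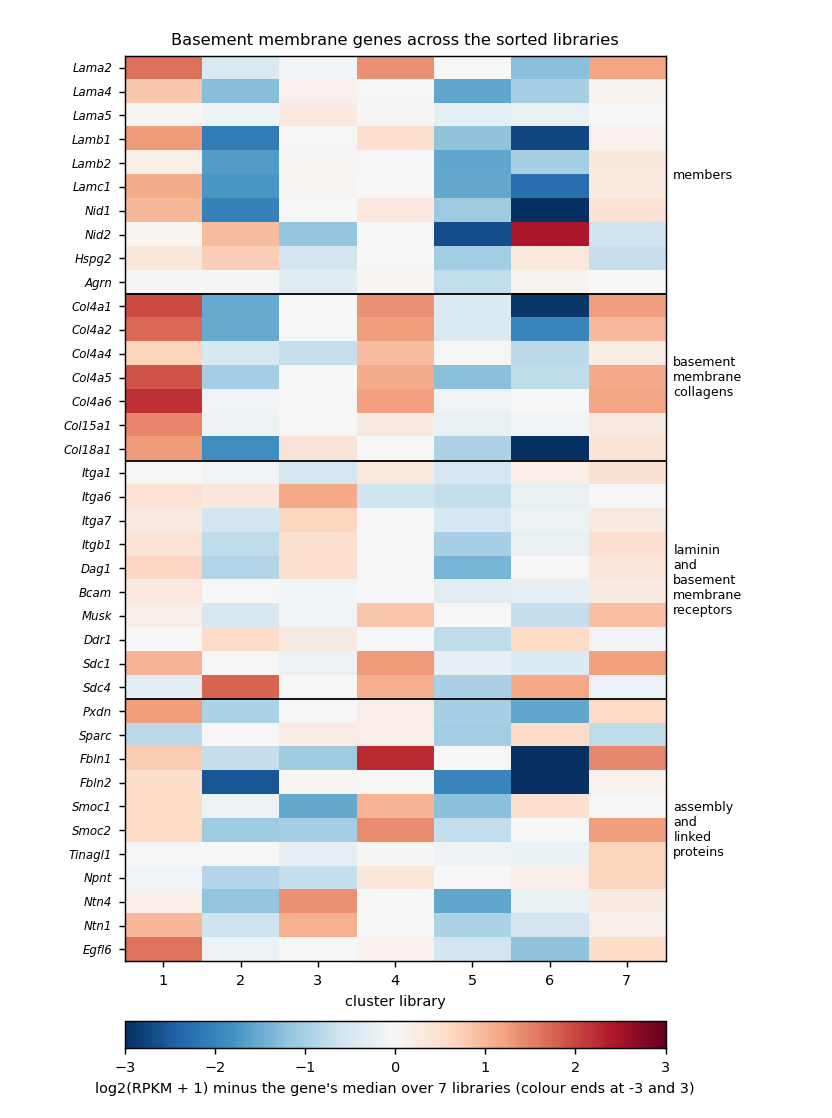
Colour shows log2(RPKM + 1) minus the median of the gene over the 7 sorted libraries (columns, clusters 1 to 7) for the 10 members and for the genes above RPKM 2 of the lists of basement membrane collagens, receptors, and assembly and linked proteins. Most laminin, Nid1 and collagen rows are red in cluster 1 and blue in cluster 6, whereas Nid2 is darkest red in cluster 6.

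Markers of the labelled and of other cell types were read beside these levels. Of 6 stromal markers all were above RPKM 2 in at least 1 sorted library. Their sum was 705, 111, 984, 651, 164, 28.9 and 381 in clusters 1 to 7 and 531 in the input, led by Ly6a (Sca-1) in every library but cluster 6, where Pdgfra led at 7.44 and Ly6a was 4.98. The 6 osteoblast markers summed to 4826, 10899.8, 32498, 4339, 14501, 40628 and 5288 in clusters 1 to 7 and 1649.9 in the input. Cluster 6, with the most Nid2, thus had the highest osteoblast and the lowest stromal marker sum. Ly6a encodes the Sca-1 that the gate of cluster 6 excluded. Singly, 4 osteoblast markers were highest in cluster 6, whereas Bglap (14020 against 11032) and Bglap2 (9949 against 7732) were higher in cluster 3. Pdgfra (4.37) and Lepr (2.58 against 3.27) were lower in cluster 2 than in cluster 6. The part of these cells in the Nid2 level was not tested.

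Vessel cells make many of these proteins, so their markers were counted. The 9 endothelial markers summed to 32.3, 20.1, 22.9, 16.5, 27.9, 6.51 and 24.2 in clusters 1 to 7 and 21.3 in the input, none was at 0, and Plvap was the most abundant, at 14.7 in cluster 1. Cdh5 was 0.865 in cluster 1 and 2.48 in cluster 5, and Pecam1, which encodes the CD31 used to deplete endothelial cells, was 2.72 and 3.84. Tek, which encodes the angiopoietin receptor TIE2, went the other way, at 5.31 in cluster 1, its highest level, 0.992 in cluster 5 and 0.328 in cluster 6. Of the 9 markers 5 were higher in cluster 1 than in cluster 5, and with TMM only Tek was, at 4.81 against 1.34. The 10 markers of pericytes and smooth muscle summed to 117, 83.7, 48.4, 77.4, 35.6, 55.4 and 120 in clusters 1 to 7 and 42.3 in the input, with Acta2 at 61.7 in cluster 1 and 84.7 in cluster 7 and Cspg4 the most abundant in clusters 2 and 6, at 39.2 and 43.0. Without Cspg4 the other 9 summed to 106, 44.5, 34.9, 64.4, 31.5, 12.4 and 110.1 in clusters 1 to 7 and 37.6 in the input, and all 9 were higher in cluster 1 than in cluster 6, also with TMM. The sum of all 10 was lowest in cluster 5 of the sorted libraries. Leaving out Cspg4, the marker highest in cluster 6 by sum share, was not planned. The sum of the other 9 was lowest in cluster 6, as were Nid1, Lama2, Lamb1 and Lamc1. Singly, Des, Mcam, Notch3 and Abcc9 were each lower in another sorted library than in cluster 6. With TMM the endothelial sum was highest in cluster 5, at 37.7 against 29.3 in cluster 1, as was Plvap, at 15.3 against 13.3, and the pericyte and smooth muscle sums of clusters 1 and 7 were 106 and 116. The part of these cells in the laminin and Nid1 levels was not tested.

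Nerve and muscle also hold such sheets. The 7 Schwann cell markers summed to 124 in cluster 2, of which S100b was 114, and to 16.5 to 46.2 in the other sorted libraries and 25.7 in the input, with Sox10 at 0 in cluster 7 and Cdh19 at 0 in cluster 5. The 7 skeletal muscle markers summed to 11.6, 141, 59.0, 3.96, 39.0, 72.0 and 6.26 in clusters 1 to 7, with 18.4 in the input. Acta1 led them in cluster 2 at 69.6, Pax7 was at 0 in clusters 2, 3, 4, 6 and 7, and Myod1 was at 0 in cluster 1. Lama2 was highest where the muscle sum was low (clusters 1, 4 and 7), while Hspg2 and the muscle sum were both highest in cluster 2, and the part of these cells was not tested.

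Blood cell genes were present in all libraries, also in the sorted ones, for which the study describes depletion of CD45+ and Ter119+ cells. The 8 haematopoietic markers summed to 11223, 12402, 8207, 11370.4, 19143, 9680.2 and 18451 in clusters 1 to 7 and 27016 in the input, with S100a9 the most abundant and Ptprc (CD45) between 1.69 and 9.26 in the sorted libraries and 13.5 in the input. The 6 erythroid markers summed to 68399 in cluster 5, where Hba-a1 led at 30376, and to 1582 to 14519.6 in the other sorted libraries, against 685 in the input. The 4 megakaryocyte markers summed to 83.9 in cluster 3 and 4.52 in cluster 6, led by Pf4, with 16.3 in the input and Gp9 at 0 in cluster 2. Cluster 5, lowest in the summed level of the 10 genes, had the highest erythroid sum of the 7, and the part of these cells was not tested. Its haematopoietic sum was the highest too, but through S100a8 (7878) and S100a9 (11033) alone. The other 6 haematopoietic markers were highest in cluster 7 of the sorted libraries (with TMM, Elane was higher in cluster 6, at 479 against 461), such as Mpo, at 394 against 67.7 in cluster 5, and Ptprc, at 9.26 against 1.80.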

How the data were processed

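RNA-seq was analysed in 8 libraries, 1 per group. The authors deposited raw counts of reads per Ensembl gene, with exon positions and exon length, without normalization. By the submitters' processing notes and the Methods, TopHat2, mm9 and Partek 2.2 were used, but the deposited coordinates are those of GRCm38, since 10 of 10 members started within 10 kb of RefSeq GRCm38.p6. The counting tool and its strand setting are not given in the sources used here. Columns of unmapped samples numbered 0. Some genes of the lists are not reported here.

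RPKM was computed from the counts, the total count per library and the exon length. Symbols were available for 32464 genes, and all 49 list genes and 63 markers were matched, 5 of them by RefSeq synonym or by GRCm38 position. A gene was compared where any sorted library had RPKM above 2, with folds as ratios of RPKM + 1. The study's thresholds were RPKM above 2 and a fold change above 2, and the added 1 and the use of any sorted library were chosen here. Other ratios are of RPKM, with 95% Clopper-Pearson intervals conditional on the sum of both counts. Because each group had 1 library, edgeR and DESeq2 gave scaling factors only and no p-value is given. The calculations were tested on simulated counts. Named genes are the 10 members, the most abundant or named genes of the fixed lists, and for each member the 2 most alike genes with at least 50 counts in their highest library, of which 1 or 2 are given. The members and lists were chosen with earlier results of these data known, and the list genes described beyond the most abundant were picked after their values were seen. Alternatives were TMM factors, DESeq2 size factors, totals without 3 dominant loci, a pseudocount of 0.1, a stricter filter and none, omission of cluster 5, and coding in place of exon length. Versions were edgeR 4.0.16 and DESeq2 1.42.0 under R 4.3.3, and scipy 1.17.1, matplotlib 3.10.9, pandas 2.3.3 and numpy 2.4.6 under Python 3.11.15.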

Additional observations from a re-analysis of the deposited data

How the results depend on the processing

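A count was taken as moved when it changed by more than 1.5 times, and any other value when it left its counting interval, with the sums over Lamc1, which have no interval, counted as moved. Of 142 recomputed values 61 moved (31 of them for single genes) and 81 did not. The order of some libraries or genes did turn with the settings, as given with the genes above and below. Intervals are narrow at this depth, so small shifts are among those that moved. With TMM factors, DESeq2 size factors and totals without the 3 dominant loci, Agrn also passed the filter and cluster 6 was highest for 2 genes under each, and the summed RPKM of the 10 genes, 4.45-fold higher in the highest than in the lowest library, became 2.98, 2.77 and 2.95. Under the same settings the range of the median difference from all genes over the libraries, 1.72 on the log2 scale, became 1.58, 1.57 and 1.59, and under TMM and DESeq2 1 gene (Hspg2) was more than 2-fold above the input in all 7 sorted libraries. With RPKM above 2 required in all 7 sorted libraries, 4 members were left (Lamb2, Lamc1, Nid1 and Hspg2): 4 varied, 3 were higher in clusters 1, 3, 4 and 7, 2 were highest in cluster 1, 0 in cluster 6, 0 were more than 2-fold above each other library, and the median range was 2.31. The cause was not tested. Without a filter the median range was 2.35, with 1 gene highest in cluster 3 and 2 in cluster 6, and with a pseudocount of 0.1 it was 1.89. Shares of all genes were computed only for the main settings and without cluster 5. Nothing is therefore read from the counts of members under the other settings. Without cluster 5, 1 gene (Nid2) was higher in the second group, and the summed ratio was 3.11, with cluster 2 lowest.

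The protein table needed for coding lengths was not used here, so the longest coding sequence of GENCODE vM1 was taken, an alternative chosen after seeing the data. The medians over the sorted libraries then moved from 0.732 to 0.577 for Lama2 over Lama4, from 14.0 to 30.5 for Lama4 over Lama5, from 0.124 to 0.199 for Lamb1 over Lamb2, from 6.37 to 8.88 for Nid1 over Nid2, from 8.69 to 5.96 for Hspg2 over Agrn, and from 0.605 to 0.673 and 3.96 to 2.75 for the alpha and beta sums over Lamc1. Per coding length, Lama2 was below Lama4 in cluster 4 (0.863), whereas Nid2 still exceeded Nid1 in clusters 2 and 6. No paired analysis was possible because the groups held 1 library each, and differences between sorts of the same population could not be measured. Depth limits Lama5 most, with 25 counts in cluster 5.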
